A study of Mus musculus with 15 samples.

Results

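H3K4 demethylases take methyl groups off lysine 4 of histone H3, and this report describes the H3K4me3 peaks at their own genes in mouse amygdala. The genes are Kdm5a, Kdm5b, Kdm5c, Kdm1a, Kdm1b, Kdm2a and Kdm2b. For each of these 7 genes, every WT H3K4me3 summit within 1 kb of an annotated transcription start site (TSS) or inside the gene body was taken, which gave 11 of the 24139 summits on chromosomes 1 to 19, X and Y. All 7 genes carried a summit at a promoter. Of these, 5 had exactly 1 summit, at the 5′ end of the gene, whereas Kdm2a had 2 and Kdm2b had 4, spread over separate start sites up to 90292 bp into the gene.

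The series profiled H3K4me3 by chromatin immunoprecipitation and sequencing (ChIP-seq) in the amygdala of adult male F1 129xB6 mice. Micrococcal nuclease, which cuts between nucleosomes, was used on 20000 nuclei per sample. There were 11 H3K4me3 samples, 2 of them WT and 3 each Kmt2a-HET, Kdm5c-KO and double mutant (DM), and 4 input samples. The WT males carried intact Kmt2a and Kdm5c. The list analysed here holds the summits, each 1 bp long, of peaks called from both WT mice together, so it has no spread between mice and no test was possible. The mutant samples were not analysed here. The score of a summit was read as −log10 of its q-value against the input, so it grades how clearly a peak stood above input and is not a level of H3K4me3 or of mRNA.

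The 7 genes fall into 3 families. The KDM5 proteins use a JmjC domain to remove methyl groups from H3K4me3 and H3K4me2, and loss of KDM5C in people causes an X-linked intellectual disability. KDM1A (LSD1) and KDM1B (LSD2) are flavin-dependent amine oxidases that act on H3K4me2 and H3K4me1 and cannot act on H3K4me3. KDM2A and KDM2B carry a CXXC zinc finger that binds unmethylated CpG dinucleotides. Their JmjC domain acts on H3K36, and KDM2B has also been reported to act on H3K4me3. Both KDM2 genes are known to make a shorter protein from an internal start, which lacks the JmjC domain and keeps the zinc finger. H3K4me3 itself is deposited around active and CpG-rich transcription start sites.

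Because CpG-rich DNA is where H3K4me3 is usually found, 300-base sequences from the genes are shown first, 5′ to 3′ on the strand of the gene, with each CpG in capitals. The promoters are RefSeq promoters on GRCm38.p6 (mm10), from 250 bases before to 50 bases after a start. RefSeq promoters were matched for 5 of the 7 genes, with 8 starts in all. No promoter sequence was matched for Kdm5a and Kdm2a. The promoter of Kdm5c is shown as the one with the fewest CpGs of the 8. That of Kdm1a is shown because the gene had the highest-scoring summit, and that of Kdm1b because 2 genes share it. For Kdm2b, a sequence is shown for each of the 3 places where the gene was marked. The Kdm2b sequences are the first-exon start, the DNA around the summit in intron 6 and the internal start, and they lie on chromosome 5 with no overlap. Of all the sequences shown, only that of intron 6 contains a summit, and the others are promoters near one.
Kdm5c, chrX:152232977-152233276, plus strand: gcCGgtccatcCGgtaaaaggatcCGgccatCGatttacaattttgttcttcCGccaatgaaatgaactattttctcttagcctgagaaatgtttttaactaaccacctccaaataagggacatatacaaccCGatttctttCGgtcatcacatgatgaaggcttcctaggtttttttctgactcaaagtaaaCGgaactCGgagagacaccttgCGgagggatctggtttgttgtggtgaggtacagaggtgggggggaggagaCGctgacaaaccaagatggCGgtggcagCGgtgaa
Kdm1a, chr4:136602674-136602973, minus strand: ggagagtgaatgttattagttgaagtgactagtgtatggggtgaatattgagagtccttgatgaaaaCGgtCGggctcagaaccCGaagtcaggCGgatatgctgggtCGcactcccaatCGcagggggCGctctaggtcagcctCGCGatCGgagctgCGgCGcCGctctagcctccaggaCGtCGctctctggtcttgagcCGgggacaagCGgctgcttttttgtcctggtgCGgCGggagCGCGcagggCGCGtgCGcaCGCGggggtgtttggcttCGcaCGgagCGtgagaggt
Kdm1b, chr13:47043249-47043548, plus strand: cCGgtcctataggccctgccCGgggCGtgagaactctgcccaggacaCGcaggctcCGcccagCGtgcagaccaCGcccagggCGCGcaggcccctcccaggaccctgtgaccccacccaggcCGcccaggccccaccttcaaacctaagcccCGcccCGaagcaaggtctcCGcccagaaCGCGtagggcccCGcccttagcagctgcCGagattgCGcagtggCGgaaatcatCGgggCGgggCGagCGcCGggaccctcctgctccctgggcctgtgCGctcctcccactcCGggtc
Kdm2b first-exon start, chr5:122988458-122988757, minus strand: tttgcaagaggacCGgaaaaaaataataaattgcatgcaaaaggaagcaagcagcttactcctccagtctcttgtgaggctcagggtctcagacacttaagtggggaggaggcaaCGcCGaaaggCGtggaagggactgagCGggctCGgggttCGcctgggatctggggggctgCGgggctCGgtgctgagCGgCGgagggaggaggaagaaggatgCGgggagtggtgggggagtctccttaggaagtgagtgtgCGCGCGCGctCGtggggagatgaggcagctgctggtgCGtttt
Kdm2b intron 6 summit, chr5:122951644-122951943, minus strand: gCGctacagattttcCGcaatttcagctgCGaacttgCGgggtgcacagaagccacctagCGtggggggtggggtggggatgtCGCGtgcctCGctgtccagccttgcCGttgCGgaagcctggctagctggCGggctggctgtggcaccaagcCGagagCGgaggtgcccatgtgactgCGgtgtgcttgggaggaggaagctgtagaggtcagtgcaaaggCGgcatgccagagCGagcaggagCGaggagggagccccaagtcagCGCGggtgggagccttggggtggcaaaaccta
Kdm2b internal start, chr5:122900318-122900617, minus strand: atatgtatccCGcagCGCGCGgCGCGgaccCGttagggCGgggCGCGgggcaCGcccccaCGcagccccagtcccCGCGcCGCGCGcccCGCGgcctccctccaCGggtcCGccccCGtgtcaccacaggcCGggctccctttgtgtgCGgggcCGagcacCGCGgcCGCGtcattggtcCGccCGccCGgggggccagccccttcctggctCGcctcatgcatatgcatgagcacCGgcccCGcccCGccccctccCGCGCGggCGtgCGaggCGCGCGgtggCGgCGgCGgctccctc

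The promoters differed widely in CpG content. The Kdm5c promoter held 13 CpGs at 47.0% GC, below the median of 14 CpGs and 57% GC over 20150 RefSeq promoters of 16522 protein-coding genes. The Kdm1a promoter held 29 CpGs, and its CpG observed over expected of 1.08, the number of CpGs relative to what its C and G content alone would give, was higher than that of 96.6% of promoters. The Kdm1b promoter was 72.3% GC with 26 CpGs, and that of Kdm5b was 54.7% GC with 17 CpGs. At Kdm2b, the first-exon start shown held 18 CpGs and the other RefSeq start of its 5′ end, at 122989099, held 28. The internal Kdm2b start shown held 47 CpGs at 79.7% GC, more CpGs than 98.1% of promoters. Another RefSeq start close by, at 122900350, shares most of that sequence and was the richest of the 8, with 49 CpGs at 81.7% GC. The 300 bases around the intron 6 summit, which is not a RefSeq promoter, held 19 CpGs at 64.7% GC. In these 300 bases, all 8 promoters had a CpG observed over expected above the median of 0.588 over all promoters, with values from 0.68 to 1.08. In these 300 bases, the order of the promoters by CpG count was not the order by score of the nearest summit. The internal Kdm2b starts had the most CpGs, and their nearest summit scored 96.6, below the 116.9 of the 5′ summit of Kdm2b. For Kdm1a, Kdm5b, Kdm1b, Kdm5c and Kdm2b, from highest to lowest score, 1 kb centred on the highest summit was also examined. CpG observed over expected was 0.99, 0.87, 0.67, 0.73 and 0.58 there, in that order. A relation between CpG content and score was not tested.

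Letters of 8 promoter motifs were searched on both strands. The GC box (GGGCGG) was found in 5 of 8 promoters, beside 47.8% of all promoters, and the Kdm1b promoter held 6 copies of it. The CCAAT box (CCAAT) was found in 4 of 8, beside 37.8%. The YY1 motif (AAGATGGCG) was found only at Kdm5c, 27 to 35 bases into the transcript, and 1.93% of all promoters hold it. The cyclic AMP response element (TGACGTCA), E-box (CACGTG), ETS (CCGGAAG), NRF1 and TATA box (TATAAA) letters were found in 0 of 8. Of all promoters, 2.31%, 8.03%, 11.9%, 1.38% and 12.1% hold these in that order. The 2 internal Kdm2b promoters overlap, so their matches are largely the same letters counted again.

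The order of the genes by their highest promoter score was Kdm1a, Kdm5a, Kdm2a, Kdm5b, Kdm1b, Kdm5c and Kdm2b. Their scores ran from 245.7 to 116.9, with a median of 198.4, beside a median of 194.6 over the 14197 coding genes that had a promoter summit (quartiles 129.8 and 230.2). Thus 4 of the 7 genes lay above the genome-wide median and 3 below it. All 7 had a promoter summit, beside 64.7% of 21938 protein-coding genes. Neighbours in this order cannot be tested against each other, since the list gives 1 score per summit.

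**Figure D1:**
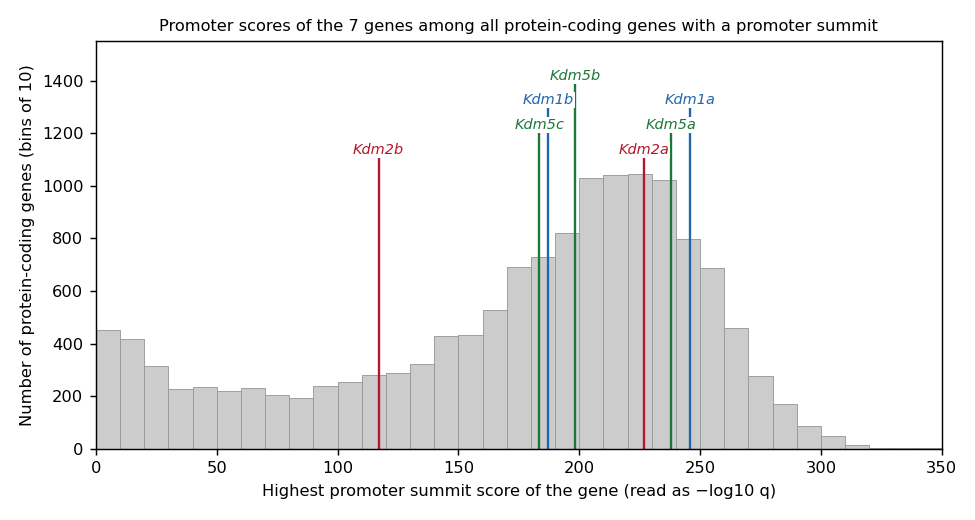
Grey bars count the protein-coding genes with a promoter summit by their highest promoter score (x axis, read as −log10 q, in bins of 10), and coloured lines mark the 7 genes (green KDM5, blue KDM1, red KDM2). Kdm2b, at 116.9, lies below the first quartile of 129.8, and the other lines lie between 183.5 and 245.7.

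Within the KDM5 family, Kdm5a scored highest. Kdm5a (ENSMUSG00000030180), the gene of a demethylase first found as a binding partner of the retinoblastoma protein, lies on the plus strand of chromosome 6 from 120364124 to 120444574. Its only summit, at 120364572, scored 238.1, higher than 80.3% of the coding genes with a promoter summit. The summit lay 114 bp downstream of the nearest TSS, in the untranslated part of exon 1. That TSS belongs to Kdm5a-204, a nonsense-mediated decay transcript. The outermost TSS, where the coding Kdm5a-201 starts, lay 448 bp upstream of the summit. The promoter is shared with Ccdc77 on the opposite strand, whose nearest TSS is 84 bp from that of Kdm5a, so the summit cannot be assigned to 1 of these genes.

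Kdm5b (ENSMUSG00000042207), a regulator of cell differentiation, lies on the plus strand of chromosome 1 from 134560171 to 134635285. Its summit at 134560375 scored 198.4, higher than 51.8% of those genes, and lay 168 bp downstream of a TSS, in the coding part of exon 1. A further summit outside the rule, at 134556881, lay 3290 bp upstream of Kdm5b with a score of 147.2, higher than 58.8% of all summits. The nearest annotated TSS of any gene was that of Kdm5b itself, and the 300 bases around it held 18 CpGs at 68.0% GC. The next closest summit outside the 7 genes, 6887 bp upstream of Kdm5a, lay 103 bp from a TSS of Ccdc77.

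Kdm5c (ENSMUSG00000025332), the gene knocked out in the Kdm5c-KO mice of the series, spans 152233020 to 152274535 on chromosome X, plus strand. Its summit at 152233495 scored 183.5, higher than 43.2% of coding genes with a promoter summit, and lay in the untranslated part of exon 1. Kdm5d, its relative on chromosome Y, also had 1 promoter summit, with a score of 136.6. Only uniquely mapped reads were used, so reads that fit both of these related genes would not have been counted at either. The mice were male, so Kdm5c and Kdm5d were each present in 1 copy, unlike the autosomal genes ranked with them. Whether copy number affected the scores was not tested.

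The KDM1 genes were at opposite sides of the middle. Kdm1a (ENSMUSG00000036940), the catalytic subunit of the CoREST repressor complex, lies on the minus strand of chromosome 4 from 136550540 to 136602723. Its summit at 136602140 scored 245.7, the highest of the 7 genes and higher than 84.7% of coding genes with a promoter summit. Kdm1b (ENSMUSG00000038080), known for its part in setting maternal imprints in oocytes, lies on the plus strand of chromosome 13 from 47043499 to 47085279, and its summit at 47043938 scored 187.2, higher than 45.1% of those genes. Both summits lay in intron 1, 168 bp and 368 bp downstream of the nearest TSS. For Kdm1a that TSS belongs to Kdm1a-201, whose 5′ end is annotated as incomplete. The outermost TSS of Kdm1a lay 583 bp upstream of its summit. The Kdm1b promoter faces that of Tpmt, a thiopurine methyltransferase gene on the opposite strand with a TSS 227 bp away.

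Kdm2a (ENSMUSG00000054611) lies on the minus strand of chromosome 19 from 4314419 to 4398285, and its higher summit was not at its 5′ end. The 5′ summit at 4396444 scored 179.8 and lay in intron 1, 473 bp downstream of a TSS. The internal summit at 4333621 scored 226.6, higher by 46.8, and lay 62.8 kb further into the gene, in intron 12 of the longest transcript. It lay 298 bp downstream of the start of Kdm2a-210, a processed transcript, and beside that of Kdm2a-212, a protein-coding one. The coding sequence of Kdm2a-212 begins after codon 493 of the 1161 codons of the longest form. The annotation leaves the 3′ end of Kdm2a-212 incomplete, so the length of its product is not given by it.

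Kdm2b (ENSMUSG00000029475) lies on the minus strand of chromosome 5 from 122870665 to 122989823 and was marked in 3 places, each at a lower score than any summit of the other 6 genes. The 5′ summit at 122988333 scored 116.9, higher than 22.3% of coding genes with a promoter summit, and lay in intron 1. The summit at 122951793, in intron 6, scored 46.7 and lay 197 bp downstream of the start of the noncoding transcript Kdm2b-215. In the same start region begins Kdm2b-214, a protein-coding transcript with an incomplete 3′ end, whose coding sequence begins after codon 200 of the longest form. The remaining 2 summits, at 122900767 and 122899531, scored 96.6 and 99.1. They lay 1236 bp apart and flanked the start of Kdm2b-201, 412 bp upstream and 824 bp downstream of it. Kdm2b-201 is protein-coding, with 776 codons, and its coding sequence begins after codon 551 of the 1309 codons of the longest form, with 97.7% of its coding bases shared with that form. The CpG-rich internal start shown above is the start of this transcript.

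**Figure D2:**
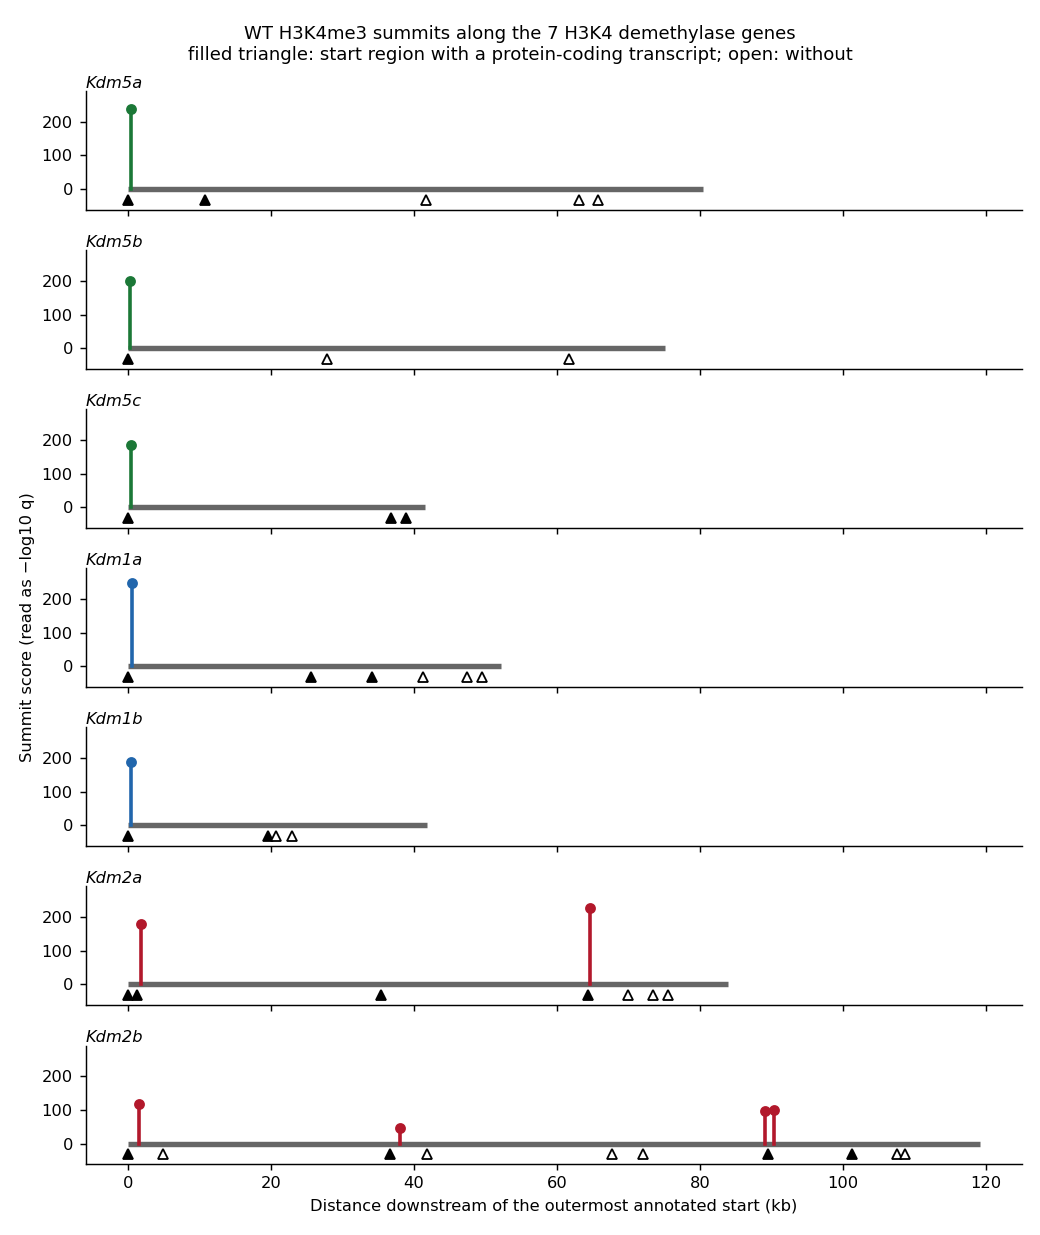
Summits along the 7 genes, with distance downstream of the outermost annotated start in kb on the x axis and summit score (read as −log10 q) on the y axis. Grey lines are gene bodies and triangles are start regions, filled where a protein-coding transcript starts. The KDM5 and KDM1 genes have 1 summit each at the left end, Kdm2a has its higher summit 64664 bp in, and Kdm2b has 4 low summits.

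Kdm2a and Kdm2b were thus the 2 of 7 genes with more than 1 promoter summit, beside 11.7% of protein-coding genes, and also the 2 of 7 with summits at separate start regions, beside 8.17%. A start region here joins annotated starts within 1 kb of each other. Long genes with many starts have more places for a summit. Among the 3050 genes with a promoter summit that are at least 41516 bp long, the length of Kdm5c, and have 3 or more start regions, 28.8% had summits at 2 or more of them. The count of 2 in 7 is close to that share. No summit of the 7 genes lay in a gene body away from a promoter, beside 14.7% of protein-coding genes with such a summit.

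The annotation gives the 7 genes 69 transcripts in 38 start regions, and 10 of these regions had a summit (26.3%, 95% Wilson interval 15 to 42%), beside 44.6% of 36758 start regions over all coding genes with a promoter summit. Every gene in both sets had a promoter summit, so this share tends to fall as the start regions per gene rise. The 38 regions came from 7 genes and the 36758 from 14197, so 26.3% and 44.6% cannot be compared directly. Of the first start regions, 6 of 7 were marked (85.7%), beside 93.1% over all coding genes with a promoter summit. The regions also differed in kind, since 11 of 38 were starts of a coding transcript with an annotated 5′ end, beside 19229 of 36758. The share that was marked differed with the kind of transcript that starts there. Where a coding transcript with an annotated 5′ end starts, 10 of 11 regions had a summit (90.9%, 95% Wilson interval 62.3 to 98.4%), beside 79.7% over all coding genes with a promoter summit. Where only coding transcripts with an incomplete 5′ end start, 0 of 8 had one, beside 4.58%, and where no coding transcript starts, 0 of 19 had one, beside 6.32%. The intervals for these zeros reach 32.4% and 16.8%, so the shares of the 7 genes overlap those of all genes in each class. The exception among the 11 was the outermost start of Kdm2a, that of Kdm2a-201, which lay 1841 bp from the nearest summit. Of the start regions after the first, 4 of 31 were marked, all in Kdm2a and Kdm2b, beside 14% over all genes. Kdm1a had 5 unmarked start regions and Kdm5a had 4, all of them after the first. The intervals cover counting error only, and regions of 1 gene are not independent.

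**Figure D3:**
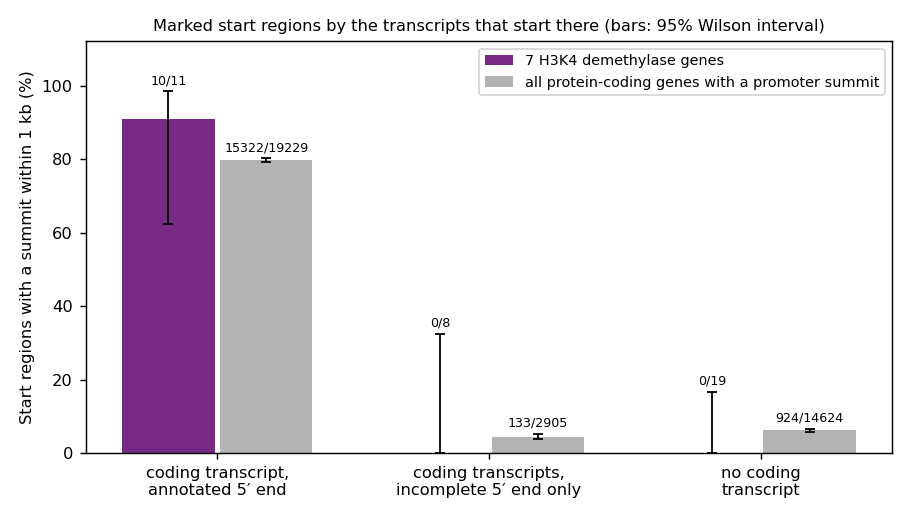
Share of start regions with a summit within 1 kb (y axis, %) by the transcripts that start there, for the 7 genes (purple) and all protein-coding genes with a promoter summit (grey), with 95% Wilson intervals and counts above the bars. For the 7 genes, 10 of 11 regions with a complete coding 5′ end are marked and none of the others.

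Most summits of the 7 genes sat just downstream of the nearest annotated start of any transcript of the gene. Such a start can be that of a noncoding transcript or of one with an incomplete 5′ end. For Kdm1a and Kdm5a, the outermost start lay 583 and 448 bp upstream of the summit, in place of 168 and 114 bp. The positions below are thus not all measured from a complete coding 5′ end. The median position of the summits was 200 bp past the nearest start, with quartiles of 168 and 333 bp. For 17410 promoter summits of coding genes it was 161 bp (6 and 318 bp). Of the 11 summits, 10 were downstream of the nearest TSS (90.9%), beside 75.4%. The exception was the Kdm2b summit 412 bp upstream of the Kdm2b-201 start. The summit nearest to the 1 kb limit was the other one at that start, at 824 bp.

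**Figure D4:**
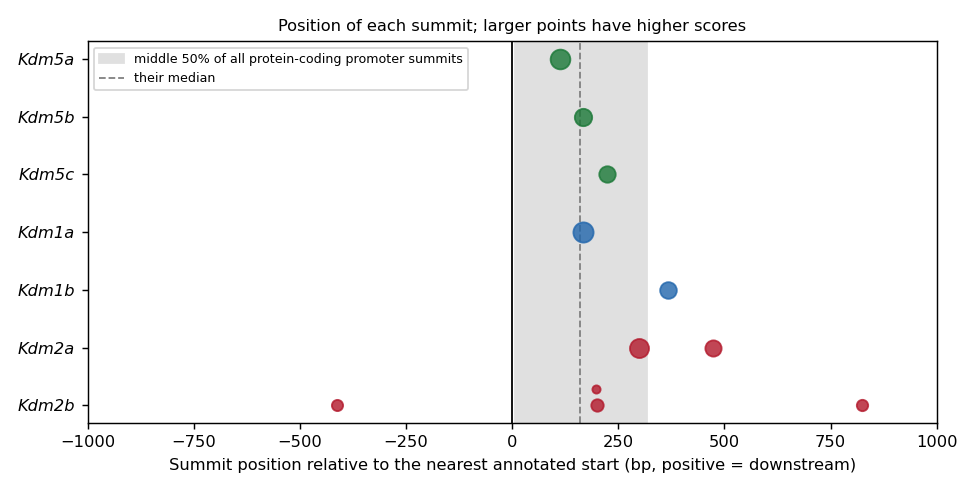
Position of each of the 11 summits relative to the nearest annotated start of its gene (x axis, bp, positive is downstream), 1 row per gene, with point size rising with score. The grey band is the middle 50% of all coding promoter summits, and 10 of 11 points lie right of the start at 0. The Kdm2b point at 197 bp is raised to show it beside the one at 200 bp.

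Many of the higher scores came in steps. The 24139 summits held 5974 distinct scores, and of the summits above 150, 54.5% had a score shared by at least 20 summits. These shared scores were spaced evenly, with a median step of 1.89 (1.79 to 1.95). All 7 summits of the KDM5, KDM1 and Kdm2a genes were on such steps, with between 75 summits (at the score of Kdm5c) and 110 summits (at that of the internal Kdm2a summit) sharing each score. On this scale Kdm1b lay 2 steps above Kdm5c, and Kdm5c 2 steps above the 5′ summit of Kdm2a. Kdm1a lay 4 steps above Kdm5a. The steps count shared scores only. By all distinct scores in the list, these distances were 66, 56 and 86 scores, in the same order. The 4 Kdm2b summits scored below 150, where steps were not sought, so they could not be placed on this scale. Their scores were each held by 2 to 4 summits. The step scale was chosen after the values were seen.

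The other lysine demethylase genes of the genome were marked too. All 18 on the list had a promoter summit, beside 64.7% of all protein-coding genes, with a median highest score of 204.6. The highest were Kdm4d at 282.3, Kdm4c at 263.0 and Jmjd1c at 241.9, whose proteins act on or are related to enzymes acting on H3K9. The lowest were Kdm6b, an H3K27 demethylase gene, at 6.2, Hr at 72.0 and Riox1 at 131.4. The 7 H3K4 demethylase genes lay inside this range, from 116.9 to 245.7. Sharing of promoters was checked only for these 7 genes, so summits of the other genes listed here and below may be shared with a neighbour. Among the H3K4 methyltransferase genes, which encode the enzymes with the opposite activity, 5 of 6 had a promoter summit, with a median of 207.7. Kmt2c scored 236.1, Kmt2a 215.3, Kmt2d 207.7, Kmt2b 203.4 and Setd1a 176.2, and no summit was listed within 1 kb of a start of Setd1b.

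Genes of the complexes in which the demethylases work were also marked, 26 of 26, beside 64.7% of all protein-coding genes, with a median of 180.8. The 11 partners of KDM1A, such as the CoREST scaffold genes, had a median of 176.2, below the 245.7 of Kdm1a itself. The 8 partners of KDM2B in the variant Polycomb complex had a median of 180.8, and the lowest of them, at 161.6, was above every summit of Kdm2b. The 6 SIN3-related partners of KDM5 proteins had a median of 192.1, and Glyr1, the partner of KDM1B, scored 228.5. The highest of the 26 were Morf4l1 at 286.2, Emsy at 270.7 and Skp1a at 245.7, and the lowest were Gatad1 at 90.8, Rcor2 at 96.6 and Phf12 at 124.4.

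Markers of brain cell types were checked against the labelled tissue. All 8 neuronal markers had a promoter summit, with a median of 236.2, led by Map2 at 284.3, Snap25 at 266.8 and Syt1 at 264.9. The 4 astrocyte, 4 oligodendrocyte and 3 endothelial markers all had one as well, with medians of 62.0, 121.9 and 22.8, and the lowest were Pecam1 at 15.5, Flt1 at 22.8 and Gfap at 29.2. Of the markers of other organs, Alb, Ins2, Myh6, Umod, Sftpc and Cdx2 had no promoter summit. The list thus holds summits at marker genes of several cell types, where 64.7% of all protein-coding genes had a promoter summit. Which cells carried each mark cannot be read from whole tissue, and fewer cells with a mark cannot be told apart from less of it in each cell.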

How the data were processed

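H3K4me3 ChIP-seq of WT amygdala was analysed. The authors used Bowtie to align reads to mm10, discarded reads without a unique position, and ran MACS2 with input as background, according to their Methods. The submitters' processing notes name MACS2 2.1.0.20140616, Bowtie and SAMtools. The deposited list covers the WT mice jointly, and its score was taken to be −log10 of the q-value, after the usual MACS2 output. Whether black-list regions had been removed from it is not given in the sources used here, and neither is the depth behind each score, so scores carry no error. The spike-in normalization and the analysis of the mutant genotypes were not repeated.

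The GENCODE M21 annotation of GRCm38 was used to place summits, leaving out unplaced contigs. Promoters reached 1 kb to each side of any TSS of a gene. Start regions join TSSs within 1 kb. Percentiles are the share of genes or summits with a lower score. Placement was checked on simulated summits, set either within 1 kb of a TSS or further upstream. All 200 of 200 were classed, or left out, as the rule requires, which checks the code against its own rule only. Promoter sequences are from RefSeq, with sequence around the intronic summit from the same build. The 7 genes, the gene lists and the motifs were chosen with earlier results of these data known. All 7 genes were named, and of each other list those with no promoter summit and the 3 highest and 3 lowest, with Kdm5d and genes sharing a promoter. Alternatives covered the window, score threshold, joining and TSSs used. No test was run, since a pooled list has no replicates. The count over the markers of other organs is not reported here. A planned comparison of protein sequences was not run. Python 3.11.15, numpy 2.4.6, scipy 1.17.1 and matplotlib 3.10.9 were used.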

Additional observations from a re-analysis of the deposited data

How the results depend on the processing

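No paired analysis was possible because the list pools both WT mice, and for the same reason no mouse could be left out. The number of summits was 11 in every setting except 8 when only scores at or above the median of 102.3 were kept. All 11 lay inside gene bodies, which the rule includes, so changing the window or TSSs could not lower this count. All 7 genes kept a promoter summit except with the outermost TSS alone, where 5 did and Kdm2a and Kdm2b had none. That is 71.4%, beside 58.2% of all coding genes. Over all coding genes this share was 64.7% in the report and 52% to 67.1% in the changed settings. With a window of 500 bp, 77.8% of the other lysine demethylases and 73.1% of the partner genes had a promoter summit, beside 57.1% of all coding genes. With the outermost TSS alone these shares were 83.3% and 76.9%, beside 58.2%. With scores at or above the median they were 88.9% and 92.3%, beside 52%. In the remaining settings both were 94.4% or more. Genes with more than 1 promoter summit numbered 2, but 1 with scores at or above the median and 0 with the outermost TSS. Genes with a gene body summit outside promoters numbered 0, but 1 with a window of 500 bp, where the Kdm2b summit at 824 bp is counted so, and 2 with the outermost TSS. For more than 1 promoter summit and for gene body summits, no share over all coding genes is given under the changed settings. Genes with summits at 2 or more start regions, a count added after the data were seen, numbered 2, but 1 with scores at or above the median (beside 3.78% of coding genes) and 0 with the outermost TSS. Joining starts at 500 bp or 5 kb kept 2, beside 13.3% and 5.41%, and so did promoter windows of 500 bp and 3 kb, beside 5.28% and 16.4%, where the share was 8.17% in the report. The median percentile of the highest promoter score was 51.8, and 53.5 with 500 bp, 51.7 with 3 kb, 50.3 with scores of 10 or more, 40.1 with scores at or above the median, 51.8 with summits joined, 51.8 with protein-coding transcripts and 52.5 with the outermost TSS. The fall to 40.1 follows from leaving lower-scoring genes out of the comparison. In 1 kb centred on the highest summit, CpG observed over expected was 0.87 for Kdm5b, 0.73 for Kdm5c, 0.99 for Kdm1a, 0.67 for Kdm1b and 0.58 for Kdm2b, in place of 0.78, 0.80, 1.08, 0.68 and 0.79. Summits carry no peak width, so a broad mark and a narrow one of the same score look alike.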
